A study of Dugesia japonica with 4 samples.

Results

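The 55 features named as tubulins were followed here among 15850 assembled transcript features of planarian heads. A feature was a member when the protein name deposited for it contained "tubulin" and did not name a tubulin-modifying enzyme, a folding factor, a binding protein or a complex. By name 38 members were alpha tubulin, 16 were beta tubulin and 1 was gamma tubulin. A member was called abundant when it had at least 200 FPKM in both control libraries and was at least 200 nt long, and 7 members were (2 alpha and 5 beta). FPKM divides the fragments of a feature by its length and by the depth of its library. The abundance limit was set on control values, so the abundant and the other members are described side by side and their difference is not tested.

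Tested heads came from wild type Dugesia japonica, a freshwater flatworm, kept in 1 mM BaCl2 at 10 °C for 35 days, until heads insensitive to the salt had regrown. Control heads came from wild type worms, which the labels set apart from the BaCl2 worms without giving their own temperature, time or any regrowth. Barium exposure, head regrowth and any difference in temperature or time therefore cannot be told apart. Each group had 2 libraries, named as biological replicates of 25 pooled worms each. The design text also names worms starved for 35 days and counts 3 replicates per treatment, and a starved group or further replicates were not analysed here. Whether the worms compared here were fed is not stated. Barium ions block potassium channels.

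Alpha and beta tubulin pair into the dimers that build microtubules, and gamma tubulin seeds new microtubules. Animals carry several alpha and beta genes, some used in most cells and others mainly in cilia, sperm tails or nerve cells. In planarians, microtubules fill the cilia that move the worm and the processes of its nerve cells. The deposited tables hold no nucleotide sequence, so members are identified by feature number and name, and which planarian tubulin gene each one represents is not known here.

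The BaCl2 libraries held 3395482 and 6875650 recovered fragments and the control libraries 5901128 and 8304630. One fragment in a 400 nt feature stood for 0.293 and 0.174 FPKM in the BaCl2 libraries and for 0.225 and 0.146 FPKM in the control libraries. Neuronal markers, which a head should hold, were detected in both groups: 0 of 35 features were at 0 in both BaCl2 libraries and 0 of 35 in both control libraries. The testis and intestine lists also had 0 features at 0 in both libraries of a group. Since features were assembled from sequenced fragments, this count does not show what the heads contained. All 55 members had names taken from other flatworms' proteins, of 18 species. Only 2 of them matched a planarian protein, against 9.53% of the 7971 named features of the whole table. The members lay on 51 contigs, of which 3 carried 7 members, and those neighbours may be pieces of 1 transcript. The median member length was 299 nt, and members on separate contigs may also be pieces of 1 gene. Counts of members are therefore not counts of tubulin genes. Of 167 member values that could be checked, 167 were whole numbers of fragments within 0.1. How fragments matching several tubulin copies were counted is not stated.

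Many tubulin features of low or middling level were lower in BaCl2 heads, while most of the fragment-rich ones did not pass the test. Of the 39 members with at least 100 fragments over the 4 libraries, 16 fell, 0 rose and 23 did not pass (limma on log2(FPKM + 1), Benjamini-Hochberg adjusted p under 0.05 over all 7983 features with that many fragments). The 16 were 11 of 24 alpha, 5 of 14 beta and 0 of 1 gamma features. Over all features tested, 1.22% were called lower and 0.200% higher, and tubulins were 16 of the 97 features called lower. At unadjusted p under 0.05, 26 of the 39 members were lower and 2 higher, and over all features tested 11.8% were lower and 6.98% higher. The median log2 fold was -2.29 over the 39 members tested and -0.15 over all features tested. A log2 fold of -2 or below was found for 20 of the 39 members and for 1.94% of all features tested.

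These counts depend on which features enter the test and on how the libraries are scaled. With the filter replaced by a mean FPKM of 1 or more (15683 features), limma called 0 of the 55 members lower and 0.0829% of all features. At unadjusted p under 0.05 this fit had 32 members lower and 2 higher, with 6.12% of all its features lower and 5.16% higher. With median-ratio rescaling of the libraries, limma called 4 of the 39 members lower, against 0.401% of all features. Over all features tested, the median shift of a feature's log2 fold was 0.16 under that rescaling and 0.20 with fragments scaled to library totals. A member with fewer than 50 fragments in the 2 BaCl2 libraries together could reach 100 only with more fragments in the control libraries. Such members, which the filter admitted mainly when lower in BaCl2 heads, were 20 of the 39 and 14 of the 16 that fell. In whole head pieces, fewer cells of a type and less tubulin RNA per cell cannot be told apart. The p-values rest on the spread between these 4 libraries of pooled worms, with 2 residual degrees of freedom. In limma each feature's variance was also drawn toward a trend over all features tested.

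**Figure D1:**
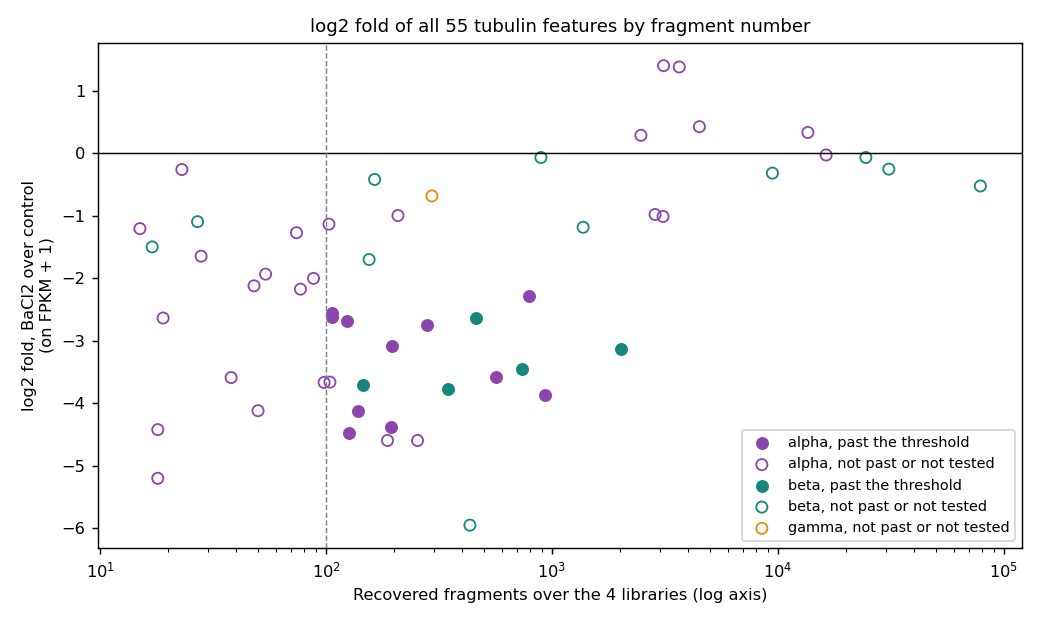
Each circle is 1 of the 55 tubulin features, with its recovered fragments over the 4 libraries (horizontal log axis) and its log2 fold of BaCl2 over control on FPKM + 1 (vertical axis, fit without a filter). Filled circles passed the threshold among features with at least 100 fragments (dashed line), and 5 alpha features lie above 0.

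Without any filter, 50 of the 55 members had a log2 fold below 0, against 52.8% of all features. The 5 above 0 were all alpha features. With median-ratio rescaling, or with fragments scaled to library totals in limma voom (a fit that weights fragment counts), 8 of the 39 tested members were above 0, because 1 alpha and 2 beta features with folds near 0 turned positive. In 40 of the 55 members both BaCl2 libraries lay below both control libraries, and in 3 both lay above. Over all features these patterns were found in 27.2% and 21.5%.

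Among the abundant features, the beta tubulins carried most tubulin fragments, and 4 of these 5 did not pass. The longest, TCONS_00011021 (1743 nt), had 265 and 543 FPKM in the BaCl2 libraries and 568 and 523 FPKM in the control libraries. The groups overlapped, since BaCl2 replicate 2 was at the control level and BaCl2 replicate 1 below it. Its log2 fold was -0.52 (SE 0.41, limma adjusted p = 0.505), -0.0062 without BaCl2 replicate 1 and -1.04 without BaCl2 replicate 2, where it passed (limma adjusted p = 0.0428) in a fit that called 9.02% of all features lower. TCONS_00000881 (615 nt) had 540 and 776 FPKM in BaCl2 and 870 and 684 FPKM in control heads, again with overlap (log2 fold -0.25, SE 0.35, limma adjusted p = 0.706). The feature named tubulin beta-2C chain (TCONS_00015041, 296 nt) had the highest mean over the 4 libraries, with 1830 and 2884 FPKM in BaCl2 and 2961 and 1954 FPKM in control heads. Its log2 fold was -0.07 (SE 0.41, limma adjusted p = 0.937), and it was above 0 with median-ratio rescaling and on library totals. TCONS_00001420 (217 nt) had 1654 and 2493 FPKM in BaCl2 and 2757 and 2320 FPKM in control heads (log2 fold -0.32, SE 0.37, limma adjusted p = 0.652). In all 4 of these features BaCl2 replicate 1 was the lowest of the 4 libraries, which also was the library with the fewest fragments.

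The fifth abundant beta feature behaved otherwise. TCONS_00000701 (243 nt) had 28.2 and 12.4 FPKM in the BaCl2 libraries, from 27 and 20 fragments, and 209 and 223 FPKM in the control libraries, from 261 and 428 fragments. It fell 10.6-fold in mean FPKM, with a log2 fold of -3.46 (SE 0.41, limma adjusted p = 0.018), and the groups did not overlap. It stood just inside the abundance limit.

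The 2 abundant alpha features went opposite ways without passing. TCONS_00014929, named tubulin alpha 1 chain (260 nt), had 598 and 863 FPKM in BaCl2 heads and 535 and 533 FPKM in control heads. Both BaCl2 libraries were above both control libraries, but the log2 fold of 0.43 (SE 0.33) did not pass (limma adjusted p = 0.50). TCONS_00001731 (352 nt) had 141 and 104 FPKM in BaCl2 and 255 and 226 FPKM in control heads, also without overlap (log2 fold -0.98, SE 0.31, limma adjusted p = 0.183). The abundance limit split members of similar level. TCONS_00000340 with 183 and 180 FPKM in control heads and TCONS_00015516 with 187 and 205 FPKM stood just outside it, and the beta feature TCONS_00015047 with 262 and 312 FPKM was too short at 191 nt.

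**Figure D2:**
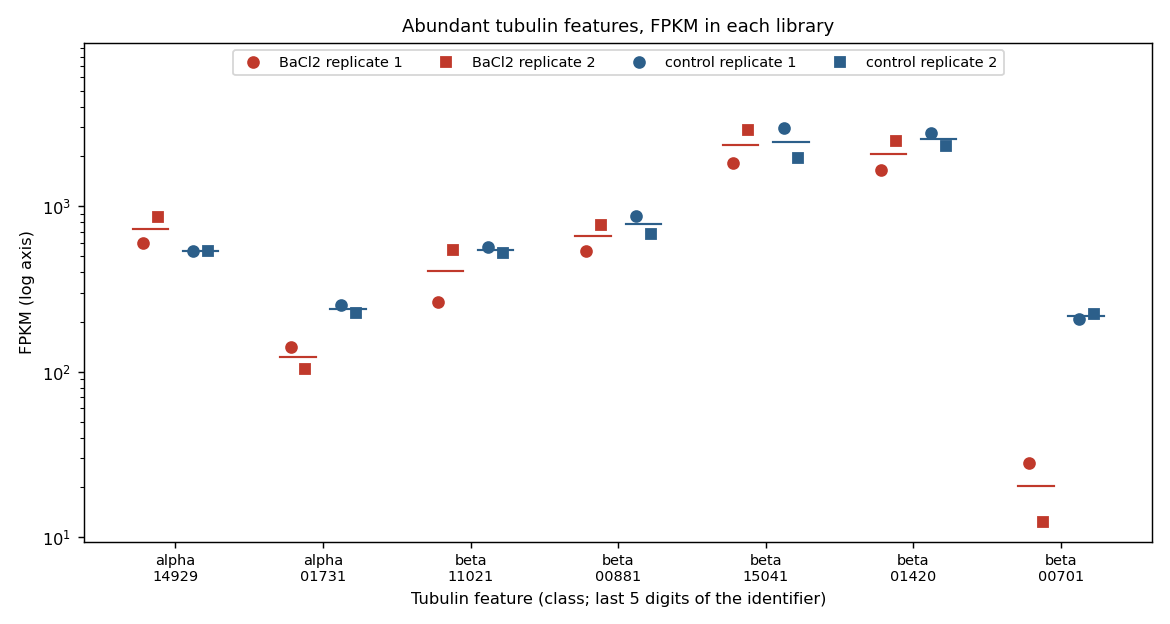
FPKM (log axis) of the 7 abundant tubulin features in each library; circles are replicate 1, squares replicate 2 and short lines group means, with BaCl2 left of control. In 4 beta features the groups overlap, while beta feature 00701 lies at 28.2 and 12.4 FPKM in BaCl2 and 209 and 223 FPKM in control heads.

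The alpha features with the most fragments, 2 long ones, had FPKM values under the abundance limit. TCONS_00002591 (1254 nt, 16328 fragments) had 142 and 158 FPKM in BaCl2 heads and 169 and 137 FPKM in control heads. Its log2 fold was -0.03 (SE 0.29, limma adjusted p = 0.968) and turned positive with median-ratio rescaling and on library totals. TCONS_00003103 (1401 nt) had 91.9 and 152 FPKM in BaCl2 and 91.7 and 95.2 FPKM in control heads, so that a single BaCl2 library stood above the other 3 (log2 fold 0.33, SE 0.34, limma adjusted p = 0.60). TCONS_00001016 (709 nt) had 45.3 and 59.9 FPKM in BaCl2 and 49.7 and 36.3 FPKM in control heads, with overlapping groups (log2 fold 0.29, SE 0.31, limma adjusted p = 0.62).

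A pair of alpha features was higher in BaCl2 heads. TCONS_00000340 (308 nt) had 404 and 560 FPKM in the BaCl2 libraries and 183 and 180 FPKM in the control libraries, a ratio of 2.65. TCONS_00015516 (276 nt) had 378 and 712 FPKM in BaCl2 and 187 and 205 FPKM in control heads, a ratio of 2.78. In both features the lower BaCl2 library was well above the higher control library. On log2(FPKM + 1) they did not pass, with log2 folds of 1.38 (SE 0.31, limma adjusted p = 0.111) and 1.40 (SE 0.39, limma adjusted p = 0.149). With limma voom on library totals they were the 2 members called higher, at 1.61 (SE 0.18, adjusted p = 0.0147) and 1.63 (SE 0.25, adjusted p = 0.0327). That voom fit called 0.664% of all features higher and 0.651% lower, and 6 members lower. With limma voom on the deposited library scale they also passed (adjusted p = 0.0296 and 0.0493), in a fit that called 0.526% of all features higher. With each library left out the log2 folds ran from 1.15 to 1.62 for TCONS_00000340 and from 0.95 to 1.86 for TCONS_00015516. Another alpha feature, TCONS_00002514 (448 nt), lay on the other side, with 71.4 and 85.4 FPKM in BaCl2 and 170 and 147 FPKM in control heads (log2 fold -1.01, SE 0.29, limma adjusted p = 0.152), and it passed without BaCl2 replicate 2.

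The 11 alpha features that fell were of lower level and mostly short, the longest having 852 nt. TCONS_00000243, that longest one, had 0.984 and 0.531 FPKM in the BaCl2 libraries and 23.5 and 25.3 FPKM in the control libraries. From 11 and 10 BaCl2 fragments against 342 and 568 control fragments, its mean was 32.2-fold lower (log2 fold -3.86, SE 0.27, limma adjusted p = 0.00213). It was the 1 member that passed in each of the main fit, the fit with a pseudocount of 0.1, median-ratio rescaling, both voom fits and the replicate block. With a mean FPKM of 1 or more as the filter, and without a filter, it did not pass (limma adjusted p = 0.094 in each). TCONS_00000134 (299 nt), with the highest BaCl2 level among the 11, had 25.3 and 20.5 FPKM in BaCl2 and 100.2 and 133 FPKM in control heads (5.08-fold lower, log2 fold -2.29, SE 0.29, limma adjusted p = 0.0245). TCONS_00014888 (234 nt) had 12.9 and 11.8 FPKM in BaCl2 and 84.6 and 92.4 FPKM in control heads (7.16-fold lower, log2 fold -2.74, SE 0.26, limma adjusted p = 0.0069). TCONS_00015280 (192 nt) had 4.48 and 5.32 FPKM in BaCl2, from 2 and 4 fragments, and 105 and 142 FPKM in control heads (log2 fold -4.39, SE 0.28, limma adjusted p = 0.00163). In each of these 4 both BaCl2 libraries lay far below both control libraries.

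TCONS_00015610 (355 nt) had 6.81 and 2.47 FPKM in BaCl2 heads and 60.9 and 61.3 FPKM in control heads. Its log2 fold of -3.58 (SE 0.41, limma adjusted p = 0.016) was -4.16 without BaCl2 replicate 1 and -2.99 without BaCl2 replicate 2. TCONS_00015364 (272 nt) had 5.97 and 2.66 FPKM in BaCl2 and 45.2 and 38.3 FPKM in control heads (log2 fold -3.08, SE 0.36, limma adjusted p = 0.0175). In both of these features BaCl2 replicate 1 kept the higher remainder. TCONS_00000344 (272 nt) had 0 and 2.22 FPKM in BaCl2, from 0 and 5 fragments, against 32.6 and 28.3 FPKM in control heads. Its log2 fold of -4.13 (limma adjusted p = 0.0245) was -3.29 without BaCl2 replicate 1 and -4.97 without BaCl2 replicate 2. TCONS_00015531 (223 nt) had 4.10 and 0 FPKM in BaCl2, from 3 and 0 fragments, and 44.0 and 55.2 FPKM in control heads. Its log2 fold of -4.48 (limma adjusted p = 0.0448) was -5.65 without BaCl2 replicate 1 and -3.30 without BaCl2 replicate 2. A count of 0 allows up to 3 fragments, so the sizes of these last falls are poorly set.

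Among the other alpha features that fell, TCONS_00000566 (320 nt) had 1.93 and 1.72 FPKM in BaCl2 and 21.5 and 13.5 FPKM in control heads (limma adjusted p = 0.0153). TCONS_00015844 (299 nt) had 2.88 and 1.02 FPKM in BaCl2 and 13.7 and 19.2 FPKM in control heads (limma adjusted p = 0.0349). TCONS_00015150 (436 nt) matched an alpha tubulin of the planarian Schmidtea mediterranea and had the lowest control level of the 16 that fell, with 0.497 and 0.442 FPKM in BaCl2 and 7.62 and 7.56 FPKM in control heads (log2 fold -2.55, SE 0.26, limma adjusted p = 0.0102). These 3 had 5 to 10 BaCl2 fragments each. Not every alpha feature with low BaCl2 values passed. TCONS_00015688 had 7.43 and 0 FPKM in BaCl2 and 80.8 and 59.3 FPKM in control heads (log2 fold -4.60, SE 0.90, limma adjusted p = 0.0797). TCONS_00014840 (log2 fold -4.60, limma adjusted p = 0.112) and TCONS_00015463 (log2 fold -3.66, limma adjusted p = 0.141) were likewise at 0 in BaCl2 replicate 2 and did not pass.

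The beta features that fell beside TCONS_00000701 were 4. TCONS_00002700 (619 nt) was the best covered, with 14.5 and 4.22 FPKM in BaCl2 heads, from 104 and 51 fragments, and 75.0 and 80.4 FPKM in control heads. It was 8.30-fold lower, and its log2 fold of -3.13 (SE 0.50, limma adjusted p = 0.0471) was -3.91 without BaCl2 replicate 1 and -2.34 without BaCl2 replicate 2. TCONS_00000158, a second feature named tubulin beta-2C chain (862 nt), had 1.76 and 0.418 FPKM in BaCl2 and 10.5 and 12.2 FPKM in control heads (10.4-fold lower, log2 fold -2.64, SE 0.37, limma adjusted p = 0.0333). The name therefore covers a feature that fell and the abundant one that did not pass. TCONS_00015046 (473 nt) had 1.72 and 0 FPKM in BaCl2, from 8 and 0 fragments, and 20.6 and 22.7 FPKM in control heads. Its log2 fold of -3.78 (limma adjusted p = 0.0231) was -4.50 without BaCl2 replicate 1 and -3.06 without BaCl2 replicate 2. TCONS_00015608 (265 nt) had 1.61 and 0.955 FPKM in BaCl2, from 2 fragments each, and 17.9 and 45.3 FPKM in control heads. Its control libraries were apart, and its log2 fold of -3.71 (limma adjusted p = 0.0198) was -4.36 without control replicate 1 and -3.07 without control replicate 2.

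**Figure D3:**
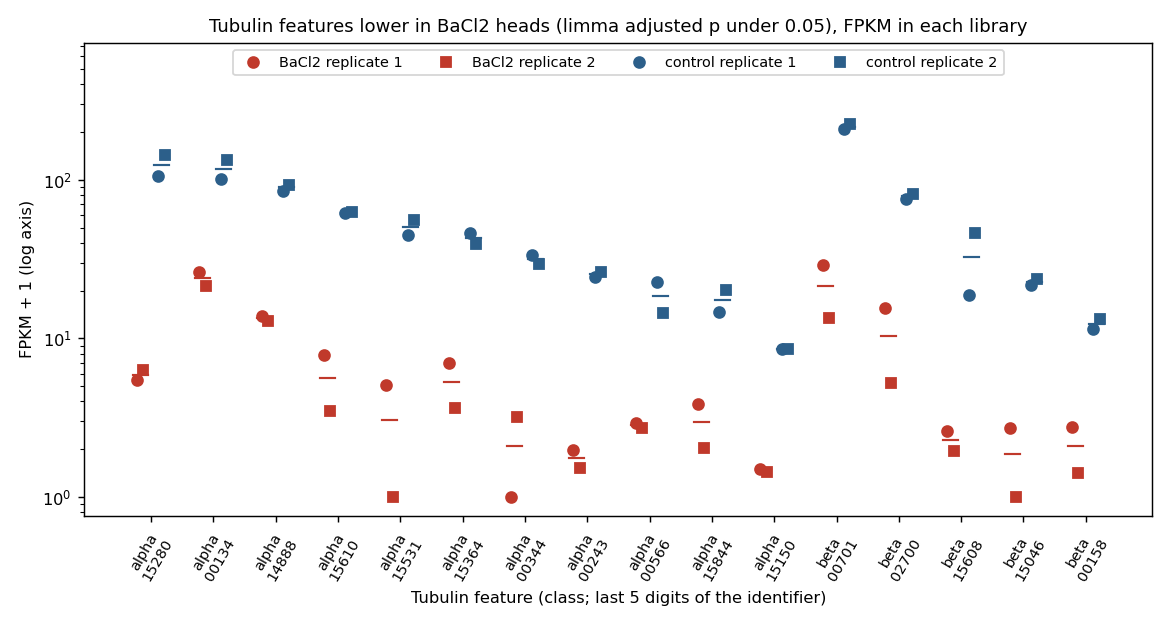
FPKM + 1 (log axis) of the 16 tubulin features called lower, in each library, with BaCl2 left of control; circles are replicate 1, squares replicate 2 and short lines group means. No feature has overlapping groups, and in 14 of the 16 BaCl2 replicate 1 lies above BaCl2 replicate 2.

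Of the beta features that did not pass, 2 had low BaCl2 values all the same. TCONS_00015047 (191 nt) had 20.5 and 0 FPKM in BaCl2, from 9 and 0 fragments, and 262 and 312 FPKM in control heads (log2 fold -5.95, SE 1.26, limma adjusted p = 0.0979). Without BaCl2 replicate 1 its log2 fold was -8.16 (limma adjusted p = 0.000561) and without BaCl2 replicate 2 it was -3.74 (limma adjusted p = 0.00483), and it also passed without either control library. TCONS_00015525 (694 nt) had 0.945 and 0.631 FPKM in BaCl2 and 4.26 and 5.36 FPKM in control heads (log2 fold -1.70, SE 0.28, limma adjusted p = 0.0512), and it passed with either control library or BaCl2 replicate 2 left out. TCONS_00000304 (488 nt) had 27.6 and 27.1 FPKM in BaCl2 and 73.3 and 54.9 FPKM in control heads (log2 fold -1.18, SE 0.28, limma adjusted p = 0.116). These 3 features were without overlap between the groups. The groups overlapped in TCONS_00015761 (306 nt), with 60.7 and 93.5 FPKM in BaCl2 and 74.0 and 84.3 FPKM in control heads (log2 fold -0.07, limma adjusted p = 0.916; above 0 with median-ratio rescaling and on library totals). They also overlapped in TCONS_00000991 (252 nt), with 29.0 and 16.6 FPKM in BaCl2 and 34.4 and 25.6 FPKM in control heads (limma adjusted p = 0.527). TCONS_00015823 (226 nt) had only 27 fragments in all and was not tested.

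The gamma tubulin feature (TCONS_00006683, 777 nt) had 2.73 and 4.08 FPKM in the BaCl2 libraries and 5.59 and 6.40 FPKM in the control libraries. Both BaCl2 libraries were below both control libraries, and the log2 fold of -0.68 (SE 0.28) did not pass (limma adjusted p = 0.263).

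The 16 members with fewer than 100 fragments were 14 alpha and 2 beta features with 15 to 98 fragments. They had 0 to 9 fragments in the BaCl2 libraries together and 12 to 92 in the control libraries together. All 16 had a log2 fold below 0 in the fit without a filter, and in 13 of them both BaCl2 libraries lay below both control libraries, but at these depths no single one could be judged. Over all features these shares were 52.8% and 27.2%. Shares among all features with fewer than 100 fragments are not given here, so these counts are not read as particular to tubulins. An alpha feature matching a Schmidtea polychroa protein (TCONS_00000293) was at 0 in both BaCl2 libraries and had 17 and 11 control fragments. Of 3 neighbouring features whose name marks an alpha chain of testis type, TCONS_00001261 (640 nt) had 7 and 0 fragments in BaCl2 and 15 and 52 in control heads, and TCONS_00001262 (342 nt) had 6 and 0 in BaCl2 and 27 and 21 in control heads. The remaining one, TCONS_00001263, was 60 nt long and had 3 and 6 fragments in BaCl2 and 10 and 4 in control heads.

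The 2 BaCl2 libraries differed in how much of the low-level tubulin signal was left. For the 16 features that fell, BaCl2 replicate 1 kept 0 to 21.8% of the control mean (median 11.1%) and BaCl2 replicate 2 kept 0 to 17.6% (median 5.59%). Replicate 1 was above replicate 2 in 14 of the 16, and in 75 of the 97 features called lower over the whole table. Among all features tested, it was above in 37.8%. Of the 55 members, 5 were at 0 in BaCl2 replicate 1 and 16 in BaCl2 replicate 2, although replicate 2 had the larger number of fragments. In the control libraries 1 of the 55 was at 0 in a library. For that member, TCONS_00015207, 2 values were set to 0 because a replicate table lacked them. Shares of all features at 0 are not given here, so these counts are not read as particular to tubulins.

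The summed tubulin level was set mostly by the fragment-rich features. The 16 features that fell held 1.16% and 0.329% of all tubulin fragments in the BaCl2 libraries and 4.92% and 6.25% in the control libraries. As fragments scaled to a common library total (CPM), the alpha features summed to 2273 and 2524 CPM in the BaCl2 libraries and 2064 and 2094 CPM in the control libraries. Both BaCl2 sums were above both control sums on this scale (mean ratio 1.15), while on the deposited library scale the ratio was 1.00. All beta features held 4570 and 6573 CPM in BaCl2 and 6570 and 6117 CPM in control heads, with overlap (mean ratio 0.878). The ratio of alpha to beta fragments, which does not depend on the scaling of libraries, was 0.497 and 0.384 in BaCl2 heads and 0.314 and 0.342 in control heads. With 2 libraries in each group a two-sided exact permutation test cannot go below p = 0.333, so these sums are given as values.

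The sums by abundance separate the features further. The 7 abundant features held 4757 and 6798 CPM in BaCl2 and 6532 and 6040 CPM in control heads, and the 48 others held 2094 and 2309 CPM in BaCl2 and 2113 and 2186 CPM in control heads. Neither sum separated the groups. Within the others, the 11 beta features had 128 and 89.6 CPM in BaCl2 and 323 and 370 CPM in control heads, whereas the 36 alpha features had 1958 and 2209 CPM in BaCl2 and 1778 and 1801 CPM in control heads. The mean of these remaining beta sums in BaCl2 heads was 0.315 times that in control heads. For the remaining alpha features, which include the long ones and the pair described above, it was 1.16 times, and 1.01 times on the deposited library scale. The median log2 fold was -0.32 over the abundant features and -2.42 over the 48 others, beside -0.05 over all features without a filter.

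**Figure D4:**
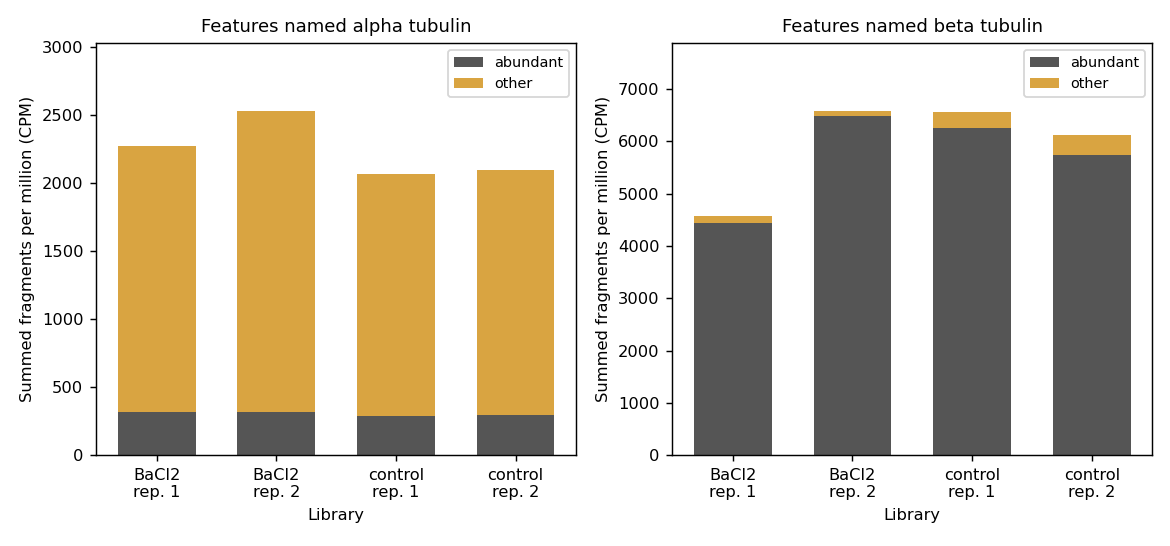
Summed fragments scaled to a common library total (CPM) for features named alpha (left) and beta tubulin (right) in each library, with the abundant features in grey and the others in yellow. Alpha sums are 2273 and 2524 CPM in BaCl2 and 2064 and 2094 CPM in control heads; the yellow part of the beta bars is 128 and 89.6 CPM in BaCl2 and 323 and 370 CPM in control heads.

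The authors' deposited table of pooled values, with its own test, called 11 of the 55 members lower and 2 higher at q under 0.05. In the authors' deposited table these calls made up 2.04% (lower) and 1.38% (higher) of all 15850 features. The 2 higher members of the authors' deposited table were TCONS_00000340 (log2 fold 1.41) and TCONS_00015516 (1.48), each with a q of 0.00428. Its lower members included TCONS_00000243 (log2 fold -5.01) and TCONS_00000701 (-3.41), with the same q. Both fell in the main limma fit, as did TCONS_00000134, TCONS_00000158, TCONS_00002700, TCONS_00015610 and TCONS_00014888. The others did not pass that fit (TCONS_00000304, TCONS_00015047) or were untested (TCONS_00000293, TCONS_00015725). Lower only in the main limma fit were TCONS_00015280 (q = 0.319), TCONS_00015364, TCONS_00000566, TCONS_00015046, TCONS_00015150, TCONS_00015844, TCONS_00015608, TCONS_00015531 and TCONS_00000344.

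Genes that act on tubulin were examined for the same comparison. Of 6 features for enzymes that modify tubulin, 1 could be tested, tubulin tyrosine ligase-like protein 12 (TCONS_00009271), with 21.8 and 32.9 FPKM in BaCl2 and 35.4 and 30.6 FPKM in control heads (log2 fold -0.28, limma adjusted p = 0.622). Of 7 features for folding of tubulin, 5 were tested and 0 passed, with 1 at unadjusted p under 0.05. The chaperonin subunit T-complex protein 1 delta (TCONS_00008672), part of the ring that folds new tubulin, had 56.7 and 82.9 FPKM in BaCl2 and 76.9 and 75.8 FPKM in control heads (log2 fold -0.15, limma adjusted p = 0.804). Prefoldin subunit 3, which hands unfolded tubulin to that ring, had a log2 fold of 0.08 (limma adjusted p = 0.872). The 3 features of complexes that seed microtubules, gamma-tubulin complex components among them, had at most 76 fragments each and were not tested. Of 13 features for microtubule-binding or severing proteins, 4 were tested and 0 passed, with 0 at unadjusted p under 0.05. Among them the severing enzyme katanin p60 (TCONS_00007414) had 47.4 and 85.2 FPKM in BaCl2 and 99.2 and 102 FPKM in control heads (log2 fold -0.65, limma adjusted p = 0.355). A feature named echinoderm microtubule associated protein1 (TCONS_00010088) went the other way. It had 23.9 and 33.9 FPKM in BaCl2 and 23.3 and 19.8 FPKM in control heads (log2 fold 0.39, limma adjusted p = 0.477). In voom on library totals and with median-ratio rescaling, 0 features of these lists passed as well.

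Markers of cell types were examined beside the tubulins. Over all features tested, 1.22% were called lower, 60.9% had a log2 fold below 0 and 18.8% had an unadjusted p under 0.05 in either direction. Of 19 tested features of ciliated cells and sperm flagella, 2 fell and 19 had a log2 fold below 0, with a median of -0.64. The 38 features of that list summed to 1444 and 2510 CPM in BaCl2 and 2723 and 3529 CPM in control heads, and none was at 0 in a whole group. Its 2 falling members were a tektin-3 feature (TCONS_00015005, 2.90 and 0 FPKM in BaCl2 against 55.6 and 59.2 FPKM in control heads) and a radial spoke feature (TCONS_00015515, 1.57 and 0.103 against 9.21 and 11.7 FPKM). They had 134 and 214 fragments over the 4 libraries, most of them from control heads, so the fragment filter favoured a fall. With voom on library totals and with median-ratio rescaling 0 of that list passed. In the other marker lists 0 features passed in the main limma fit or with median-ratio rescaling, while voom on library totals called 1 neuronal and 3 muscle features higher. Testis and germ line features summed to 146 and 164 CPM in BaCl2 and 164 and 234 CPM in control heads (6 of 10 tested, median log2 fold -0.37, 0 at unadjusted p under 0.05). Neuronal features summed to 559 and 532 CPM in BaCl2 and 294 and 385 CPM in control heads (16 of 35 tested, median 0.34, 4 at unadjusted p under 0.05). Features of neoblasts, the planarian stem cells, and of dividing cells summed to 687 and 522 CPM in BaCl2 and 803 and 748 CPM in control heads (7 of 22 tested, median -0.62, 3 at unadjusted p under 0.05). Muscle features summed to 16514 and 17364 CPM in BaCl2 and 10913 and 10230 CPM in control heads (23 of 30 tested, median 0.33, 5 at unadjusted p under 0.05). Intestinal features summed to 2833 and 2908 CPM in BaCl2 and 2338 and 2389 CPM in control heads (11 of 14 tested, median -0.11, 0 at unadjusted p under 0.05). The part of these differences in the tubulin differences was not tested.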

How the data were processed

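Expression was measured by RNA sequencing in planarian heads, 2 BaCl2 and 2 control libraries (poly(A) TruSeq, per the labels' protocols). The authors deposited 3 tables of assembled features with FPKM values, per the file headers: 1 pooled by group and 2 with 1 library of each group. A log2 fold change and a p-value and q-value of the authors' own comparison stand in each deposited table, per the file headers. Alignment and assembly tools were Cufflinks 2.2.1, Cuffdiff, TopHat2 2.0.13, TopHat and Bowtie, per the submitters' processing notes, in which no build is listed.

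In 15203 of 15204 features a fixed weighting of the 2 replicate values gave the pooled value within 0.1%, and these weights put the 4 libraries on 1 scale. Fragment counts were recovered from FPKM by assuming fragments of 28 to 440 nt with a mean of 200 nt and an SD of 80 nt; 99.7% of checked values in each library were whole within 0.1. With the pooled table, 752 library values that a replicate table lacked were filled in, 2 of them in the beta feature TCONS_00015207, both 0. Where the pooled BaCl2 value was blank (440 features, TCONS_00015207 among them), a lacking value was set to 0. In the main test, limma 3.58.1 in R 4.3.3 (two-sided, empirical Bayes with a trend) was fitted to log2(FPKM + 1), a scale that understates folds of low features, over features with at least 100 fragments, without a block. The fit was also run on simulated counts with the same spread setting for every feature and no filter applied to them. That run does not show how the fragment filter acts on these members. Alternatives were other filters and pseudocounts (0.1 and 5), median-ratio rescaling, voom, a replicate block and each library left out. Described by rule were all abundant members, all past the threshold, gamma tubulin, the 6 alpha and 6 beta members with the most fragments among those not past it, and members that voom called higher; further members were chosen after their values were seen. Partner features were those past the threshold or the 2 with the most fragments of each list. Members, lists, the fragment filter and tests were chosen with earlier results of these data known. Counting floors cover counting error only.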

Additional observations from a re-analysis of the deposited data

How the results depend on the processing

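The 16 tubulin features called lower became 0 when a mean FPKM of 1 or more was the filter and 0 without a filter on low values, 10 with a pseudocount of 0.1 FPKM, 4 with median-ratio rescaling and 6 with voom on library totals. All of the 10, 4 and 6 were among the 16, and those fits called 0.589%, 0.401% and 0.651% of all features lower. The count was 20 with a pseudocount of 5 FPKM, 14 with voom on the deposited scale (12 of them among the 16) and 20 to 23 with each library left out. Over all features the share called lower was 1.22% in the main fit, 1.92% with a pseudocount of 5 FPKM and with voom on the deposited scale, and 2.32% to 9.02% with a library left out. The 0 called higher became 2 with voom on library totals and 2 with voom on the deposited scale. Over all features the share called higher was 0.200% in the main fit, 0.664% with voom on library totals and 0.526% with voom on the deposited scale. Fits without a library assume that the lone library of a group varies like the others. The replicate number links no stated culture or day (correlation of the libraries' deviations 0.145 over 7983 features); the replicate block called 23 tubulins lower, the 16 among them, and 2 higher, with 6.83% of all features lower and 5.06% higher.

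Folds near 0 changed sign. TCONS_00015041 had 0.10 with median-ratio rescaling and 0.16 with voom on library totals, TCONS_00002591 had 0.14 and 0.19, and TCONS_00015761 had 0.10 and 0.17. With each library left out the folds ran from -0.39 to 0.26 for TCONS_00015041, from -0.18 to 0.13 for TCONS_00002591, from -0.37 to 0.24 for TCONS_00015761, from -0.51 to 0.0078 for TCONS_00000881 and from -0.024 to 0.69 for TCONS_00003103.

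The log2 ratio of summed alpha tubulin (0.21) was 0.0003 on the deposited scale, 0.0069 in FPKM and 0.13 to 0.28 with each library left out. For beta it was -0.47 to 0.051, and for abundant features -0.40 to 0.11, with each library left out. For the other features it moved from 0.03 to -0.17 on the deposited scale and -0.21 in FPKM. The median log2 fold of abundant features was -0.61 to -0.0062 with each library left out, and that of the others -3.17 with a pseudocount of 0.1 FPKM and -1.32 with 5 FPKM. Below 100 fragments, depth limits every statement on a single feature.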
